A study of Homo sapiens with 9 samples.

Results

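Fibrinogen and the acute phase proteins described here are the products of 10 genes: FGA, FGB, FGG, FGL1, SAA1, SAA2, HP, ORM1, SERPINA1 and CP. Every non-control probe whose transcript accession belongs to a member gene was taken, whatever its value, which gave 14 probes of the 50599 on the array and 10 genes of the 21743 that could be named. FGA had 3 probes, SAA2 and CP had 2 each, and the other 7 genes had 1 each.

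RNA was measured on 9 single-colour Agilent arrays, 3 per group, in A549, a human lung adenocarcinoma line, before and after retroviruses carrying OCT3/4, SOX2 and KLF4 were introduced. The groups were parental A549, OSK-A549-Colony, the cells of the dome-shaped colonies that appeared after transduction, and OSK-A549-SN, spindle cells that surrounded those domes and that trypsin detached first. The study's methods give 3 separate transduction experiments as the source of the RNA. The parental cells were at passages 98 to 99 and the transduced cells at later passages, so passage and transduction cannot be told apart. Between 25808 and 29315 probes per array were detected. Of the 9 arrays, 8 lay on 1 slide and OSK-A549-SN replicate 3 lay alone on a second slide.

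Acute phase proteins are plasma proteins whose level in blood climbs during infection, injury or cancer. The liver makes most of them in response to interleukin-6 and interleukin-1, through the transcription factors STAT3, C/EBP and NF-kB, on top of a basal drive from hepatocyte factors such as HNF1. Fibrinogen is built from paired Aα, Bβ and γ chains, is cleaved by thrombin into the fibrin of a clot, and can also be made by lung epithelial cells and by carcinoma cells such as A549.

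Levels are given as normalized log2 intensity, which is log2 of the background-subtracted spot intensity minus the 75th percentile of the same array, so 0 means as bright as that percentile and a difference of 1 means a factor of 2. Intensity, where given, is the unscaled spot brightness. A gene with several probes is represented by its brightest probe, and levels of different probes are not comparable with each other. A gene counts as called where limma gave an adjusted p below 0.05 (Benjamini-Hochberg, over every probe detected in the 6 arrays compared) together with a difference of more than a factor of 2. Errors of group means are SDs with n = 3, and errors of fold changes are standard errors (SE). Both transduced groups were set against the same parental arrays, so those comparisons are not independent of each other. In bulk RNA, fewer cells that express a gene and less RNA per cell cannot be told apart.

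The representative probes of 8 of the 10 genes were well above background on all 9 arrays; the exceptions were SAA1 and SAA2. Of 15 markers of A549 and lung epithelium, 12 were detected on all 9 arrays, among them the keratins KRT7, KRT8 and KRT18, while the lung lineage factor NKX2-1 was detected on none. Of 10 hepatocyte markers, 3 were detected on all 9 arrays, and APOB and F9 on none. The summed hepatocyte marker intensity was 9821, 8610 and 7024 on the parental arrays, 4812, 3971 and 4133 on the Colony arrays and 4842, 4350 and 5754 on the SN arrays. Most of it came from CPS1, a urea cycle enzyme, at 6824 to 9645 in parental cells, 3774 to 4641 in Colony cells and 4194 to 5513 in SN cells. The hepatocyte sum was thus lower where several members were lower, and its part in the results was not tested. The summed intensity of the A549 and lung epithelium markers was 785040 to 851140 in parental, 762310 to 780940 in Colony and 731900 to 788090 in SN cells, with KRT18 and AKR1B10 the brightest. Single markers of that list went either way: CDH1 read 2424 to 2931 in parental, 1231 to 1361 in Colony and 1258 to 1659 in SN cells, and NQO1 read 1959 to 2353, 3032 to 3135 and 2466 to 2895. Of the markers of other cell types, 0 of 7 for fibroblasts, 2 of 5 for endothelium and 3 of the 6 with a probe for leukocytes were detected on all 9 arrays, and 6, 3 and 1 of them on no array.

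**Figure D1:**
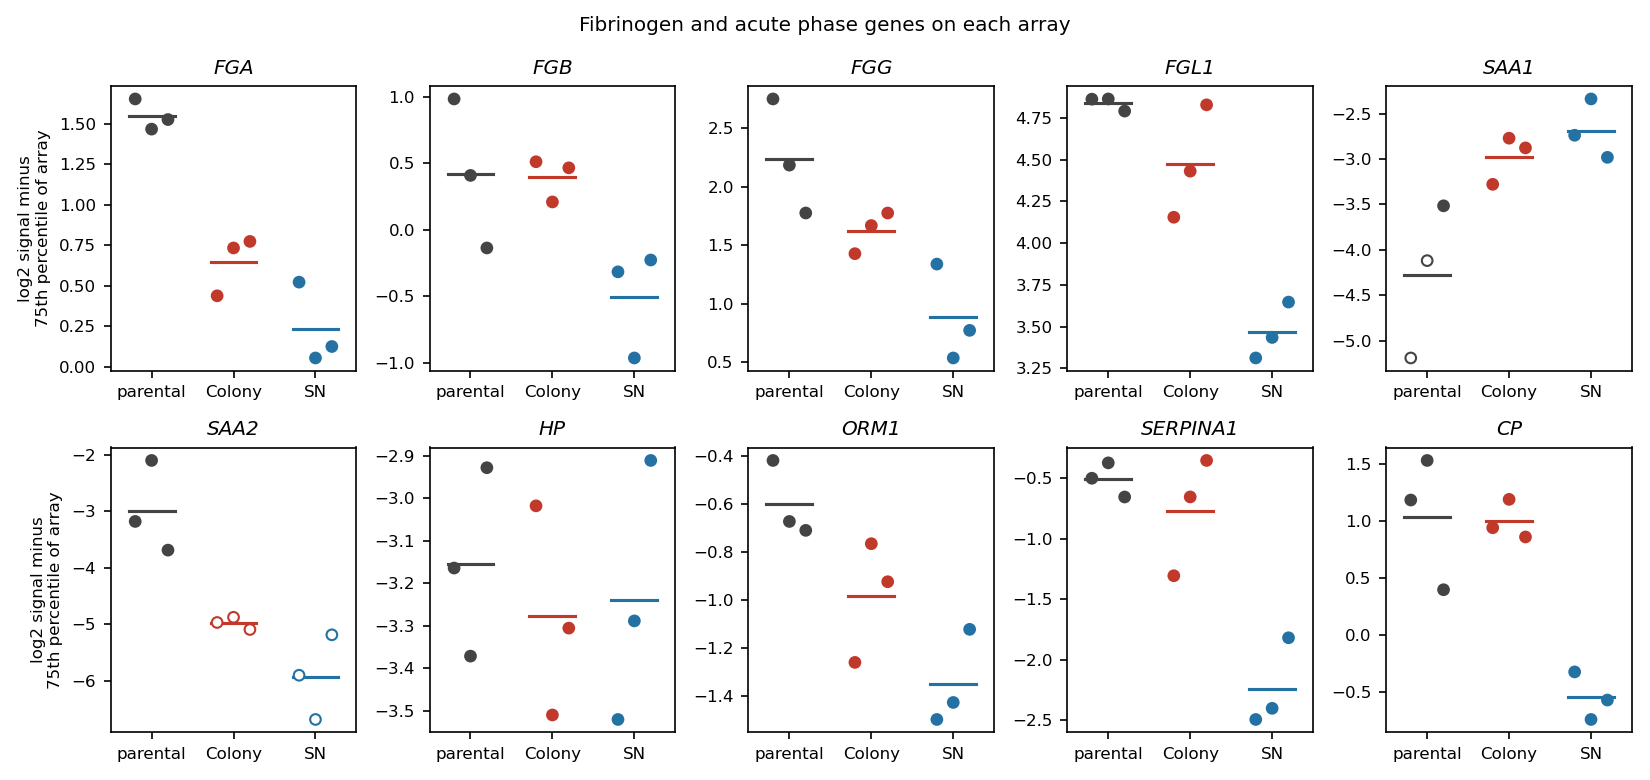
Normalized log2 intensity of the representative probe of each of the 10 genes (vertical axis) on each array, grouped as parental A549, Colony and SN; points are arrays, bars are group means, open symbols mark arrays at background level for that probe, and each panel has its own axis. SERPINA1 lay between -0.66 and -0.38 in parental cells and between -2.49 and -1.82 in SN cells, whereas HP overlapped across the 3 groups.

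The genes of the 3 fibrinogen chains lie next to each other on chromosome 4, and their products are subunits of 1 protein, so the stretch before each start is shown here. The sequences are the 250 bases before the start in RefSeq on GRCh38.p14: chr4:154562730-154562979 on the plus strand for the first of the 2 FGB starts, chr4:154590743-154590992 on the minus strand for FGA and chr4:154612657-154612906 on the minus strand for FGG. Each is written 5′ to 3′ on the strand of its gene, and capitals mark the letters of the motifs named after them.
FGA: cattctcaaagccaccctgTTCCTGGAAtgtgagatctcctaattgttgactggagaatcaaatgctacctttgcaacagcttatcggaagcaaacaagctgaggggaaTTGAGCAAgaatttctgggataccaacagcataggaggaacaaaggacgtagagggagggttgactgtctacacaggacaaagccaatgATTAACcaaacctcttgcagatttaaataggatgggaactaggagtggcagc
FGB: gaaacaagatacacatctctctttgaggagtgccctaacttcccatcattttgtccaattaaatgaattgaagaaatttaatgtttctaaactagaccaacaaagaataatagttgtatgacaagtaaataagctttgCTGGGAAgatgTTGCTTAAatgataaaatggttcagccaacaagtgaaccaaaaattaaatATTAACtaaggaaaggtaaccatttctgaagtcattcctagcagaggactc
FGG: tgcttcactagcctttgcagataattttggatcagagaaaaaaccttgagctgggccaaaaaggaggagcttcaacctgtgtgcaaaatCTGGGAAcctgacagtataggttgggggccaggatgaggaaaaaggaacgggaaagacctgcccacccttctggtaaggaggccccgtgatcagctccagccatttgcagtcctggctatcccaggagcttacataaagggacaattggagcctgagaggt
The letters searched, on both strands, were CTGGGAA for the interleukin-6 response element, TTCNNNGAA for STAT, TTGCNNAA for C/EBP, GTTAAT for HNF1 and GGGANTTTC for NF-kB. No 2 matches in these windows overlapped. The share of 35116 promoters with each motif was 9.15%, 6.57%, 9.05%, 6.23% and 1.12%, in that order.

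FGB held the interleukin-6 response element from -112, counted back from its start, followed by a C/EBP match at -101 to -94 and the HNF1 letters on the other strand at -51 to -46. FGA held a STAT match at -231 to -223, with C/EBP at -141 to -134 and an HNF1 match at -52 to -47, both on the other strand. FGG held an interleukin-6 response element at -161 to -155 and none of the other 4 motifs. Of the 10 members, 5 had an entry among the promoters, with 7 starts between them; the remaining members are SAA1, SAA2, HP, CP and FGL1. The second FGB start carried the same motifs as the first, 1 of the 2 SERPINA1 starts held an HNF1 match at -76 to -71, and ORM1 and the other SERPINA1 start held none. The NF-kB letters were in none of the 7. A match describes letters in the window, not a bound site or a cause, and a missing match says only that these letters are not there.

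**Figure D2:**
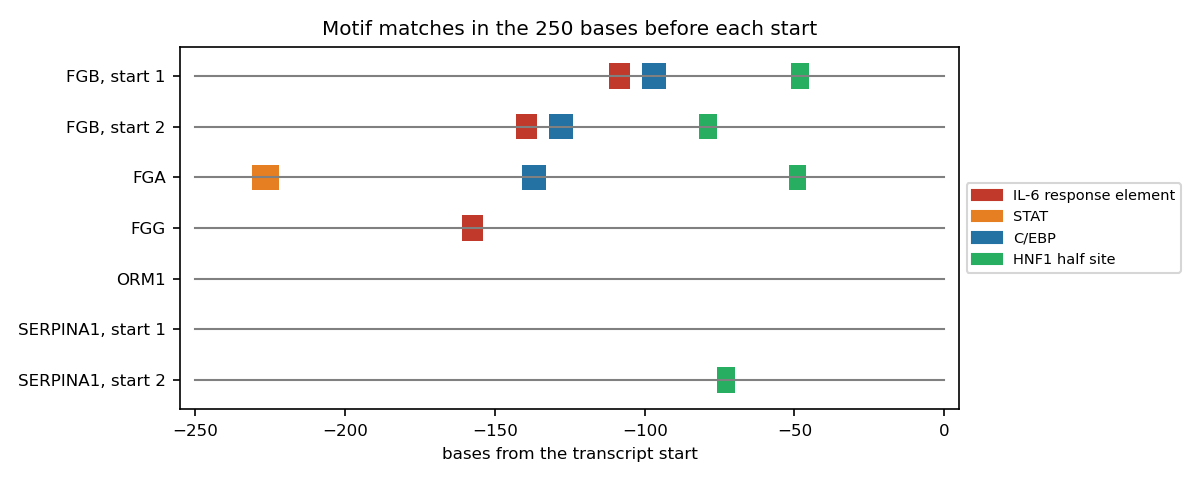
Positions of the motif matches in the 250 bases before each start of the 5 member genes with a promoter entry; the horizontal axis is the distance from the start in bases, each line is 1 start, each block is 1 match, and colours mark the motif. FGA and FGB each held 3 matches and FGG held 1.

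FGA encodes the Aα chain, from which thrombin releases fibrinopeptide A. Its level was 1.66, 1.47 and 1.53 in the parental replicates, 0.44, 0.73 and 0.77 in the Colony replicates and 0.52, 0.05 and 0.12 in the SN replicates. All 6 transduced arrays lay below all 3 parental arrays, and SN replicate 1 lay within the Colony range. Group means ran from 1.55 ± 0.10 in parental cells through 0.65 ± 0.18 in Colony to 0.23 ± 0.25 in SN. Against parental cells, FGA fell in SN cells by 2.49-fold (log2 -1.32, SE 0.170, 95% interval -1.73 to -0.90, adjusted p = 0.0374). In Colony cells it was 1.87-fold lower (log2 -0.90, SE 0.132, adjusted p = 0.0266), past the p threshold but short of a factor of 2. The Colony and SN values overlapped (log2 0.42, adjusted p = 0.259), so the call in SN alone does not set those groups apart. The SN call was lost without any single array, at adjusted p = 0.0733, 0.128 and 0.0638 without parental replicates 1, 2 and 3 and 0.117, 0.157 and 0.0768 without SN replicates 1, 2 and 3, within 0.00672 to 0.173 over all alternatives. It was also lost with no detection filter (0.0545), with slide as a block (0.0815) and with no moderation (0.0731). On slide 1 alone, which is the fit without SN replicate 3, the difference was -1.26.

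The 3 FGA probes carry accessions of 2 transcripts. The representative probe and a second one carry the accession of the shorter transcript, which encodes the common alpha chain, and the third carries that of the longer transcript, which encodes the alpha-E chain. The second alpha probe read -0.40, -0.58 and -0.47 in parental cells, -1.63, -1.21 and -1.28 in Colony cells and -1.66, -1.85 and -2.07 in SN cells. It gave the same order as the first, without overlap between any of the groups, and fell by 2.60-fold in SN cells (log2 -1.38, adjusted p = 0.0307), against 1.85-fold lower in Colony cells (log2 -0.89, adjusted p = 0.0309). The SN call of this second probe was lost without any single array, at adjusted p = 0.0658, 0.105 and 0.0552 without parental replicates 1, 2 and 3 and 0.118, 0.140 and 0.0512 without SN replicates 1, 2 and 3, within 0.00570 to 0.173 over all alternatives. It was also lost under normexp (log2 -0.88), with slide as a block (0.0549) and with no moderation (0.0638). The alpha-E probe read -0.42, -0.87 and -1.28 in parental cells, -1.38, -0.97 and -0.95 in Colony cells and -1.71, -2.46 and -1.81 in SN cells. Here the Colony arrays overlapped the parental ones (log2 -0.25, adjusted p = 0.537) and the SN arrays lay below both other groups. The alpha-E probe did not pass in SN against parental cells (log2 -1.14, adjusted p = 0.113) or in Colony against SN cells (log2 0.89, adjusted p = 0.163). In SN against parental cells this probe was called under the stricter detection filter (adjusted p = 0.0483) and with all 9 arrays in 1 fit (0.0417). Whether the alpha and alpha-E probes differ in their response to transduction was not tested.

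**Figure D3:**
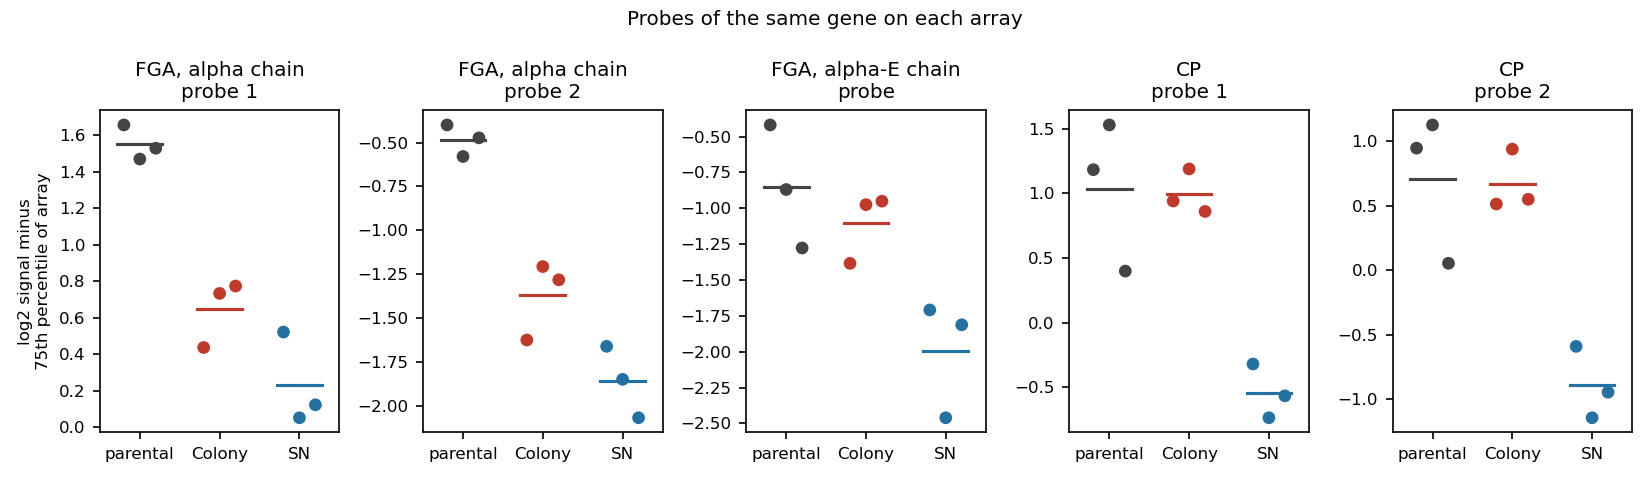
Normalized log2 intensity (vertical axis) on each array of the 3 FGA probes and the 2 CP probes; points are arrays, grouped as parental A549, Colony and SN, bars are group means, and each panel has its own axis. Both CP probes were lowest in SN cells, and the alpha-E probe of FGA overlapped between parental and Colony cells.

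FGB encodes the Bβ chain and FGG the γ chain, which carries the main binding site for the platelet integrin. FGB read 0.98, 0.41 and -0.14 in parental cells, 0.51, 0.21 and 0.47 in Colony cells and -0.32, -0.96 and -0.23 in SN cells. The parental arrays spread widely and enclosed all 3 Colony arrays, while the SN arrays lay below both. FGG read 2.75, 2.18 and 1.78 in parental cells, 1.43, 1.67 and 1.78 in Colony cells and 1.34, 0.54 and 0.77 in SN cells. Here the highest Colony array met the lowest parental array to 2 decimals, and SN was again lowest. Neither gene passed the test. In SN against parental cells FGB was 1.89-fold lower (log2 -0.92, adjusted p = 0.202) and FGG 2.56-fold lower (log2 -1.35, SE 0.323, adjusted p = 0.0952). FGG was called there under normexp (adjusted p = 0.0328), the stricter detection filter (0.0371) and all 9 arrays in 1 fit (0.0288), within 0.0288 to 0.263 over all alternatives. In Colony against parental cells FGB differed by -0.02 (95% interval -0.75 to 0.71, adjusted p = 0.964) and FGG by -0.61 (adjusted p = 0.191). The sign for FGB in that comparison turned to 0.26 without parental replicate 1 and to 0.07 without Colony replicate 2. In the order of the groups, then, SN was lowest for all 3 chains, Colony and parental arrays overlapped for FGB, and Colony and SN arrays overlapped for the representative FGA probe, though not for the other 2 FGA probes. Colony cells stood above SN cells by 1.86-fold for FGB (log2 0.90, adjusted p = 0.145) and 1.67-fold for FGG (log2 0.74, adjusted p = 0.192), short of the threshold.

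FGL1 encodes a secreted protein related to fibrinogen through its fibrinogen-like domain. It is made by liver cells and is known as a ligand of LAG-3, an inhibitory receptor on T cells. Its level was 4.86, 4.86 and 4.79 in parental cells, 4.15, 4.43 and 4.83 in Colony cells and 3.31, 3.44 and 3.65 in SN cells. The parental arrays were tightly grouped, Colony replicate 3 reached into their range, and every SN array lay below every other array. FGL1 fell in SN cells by 2.59-fold (log2 -1.37, SE 0.139, adjusted p = 0.0274) and was 1.29-fold lower in Colony cells (log2 -0.37, adjusted p = 0.247). The difference between Colony and SN cells was 2.01-fold (log2 1.01, SE 0.198, adjusted p = 0.115) and did not pass. The SN call was lost at adjusted p = 0.0633, 0.105 and 0.0508 without parental replicates 1, 2 and 3 and at 0.120 and 0.137 without SN replicates 1 and 2, and was kept at 0.0314 without SN replicate 3, where the log2 difference within slide 1 was -1.46. Over all alternatives its adjusted p ranged from 0.00516 to 0.173, and with no moderation the call was lost at 0.0572.

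SERPINA1 encodes alpha-1 antitrypsin, the plasma inhibitor of neutrophil elastase that shields the lung, and CP encodes ceruloplasmin, the copper-carrying ferroxidase of plasma. SERPINA1 read -0.50, -0.38 and -0.66 in parental cells, -1.31, -0.66 and -0.36 in Colony cells and -2.49, -2.40 and -1.82 in SN cells. Colony arrays ran from below the parental range to just above it, while the SN arrays formed a separate low group. SERPINA1 fell in SN cells by 3.31-fold (log2 -1.73, SE 0.217, adjusted p = 0.0346). In Colony against parental cells the difference was -0.26 (95% interval -0.91 to 0.38, adjusted p = 0.526), and it turned to 0.01 without Colony replicate 1. Colony exceeded SN by 2.76-fold (log2 1.47, SE 0.305, adjusted p = 0.120), which missed the threshold. The SN call was lost at adjusted p = 0.0707, 0.130 and 0.0610 without parental replicates 1, 2 and 3 and at 0.131 and 0.151 without SN replicates 1 and 2, and was kept at 0.0272 without SN replicate 3, with -1.94 within slide 1. The range over all alternatives was 0.00664 to 0.174. Under normexp background correction the call was kept with a smaller value (log2 -1.07, 2.09-fold), and with no moderation it was lost at 0.0789.

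CP read 1.18, 1.53 and 0.40 in parental cells, 0.94, 1.19 and 0.86 in Colony cells and -0.32, -0.74 and -0.57 in SN cells. All 3 SN arrays lay below the other 6, while the Colony arrays fell inside the parental range. CP was 2.99-fold lower in SN than in parental cells (log2 -1.58, SE 0.312, adjusted p = 0.0703) and 2.91-fold higher in Colony than in SN cells (log2 1.54, SE 0.150, 95% interval 1.17 to 1.91, adjusted p = 0.0930). Neither passed. Colony and parental cells differed by -0.04 (95% interval -0.80 to 0.72, adjusted p = 0.939), a difference whose sign turned without parental replicate 1 (0.03), parental replicate 2 (0.21) or Colony replicate 3 (0.03). A second CP probe gave -1.60 in SN against parental cells (adjusted p = 0.0715) and 1.56 in Colony against SN cells (adjusted p = 0.102). CP in SN against parental cells was called without parental replicate 3, at adjusted p = 0.0498, and under normexp (0.0238), the stricter detection filter (0.0221) and all 9 arrays in 1 fit (0.0173), within 0.0173 to 0.224 over all alternatives. The slide 1 values were -1.57 for SN against parental and 1.53 for Colony against SN.

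SAA1 and SAA2 encode serum amyloid A, the lipoprotein-bound acute phase reactant that climbs most steeply in inflamed blood. Their transcripts are nearly identical, as are those of ORM1 and its paralog ORM2, and how far the probes tell them apart was not tested. The intensity of SAA2 was 28.2, 59.1 and 16.9 on the parental arrays, 8.01, 7.99 and 7.08 on the Colony arrays and 3.87, 2.11 and 7.43 on the SN arrays. It was well above background on all 3 parental arrays and on none of the 6 others, where only a bound on the fold can be given. For that bound the parental mean was set against a dim-group mean in which no array counted for less than the faintest signal it still held well above background (7.91 to 13.5 in intensity over the arrays). Some probes brighter than that signal were still not well above background. SAA1 was such a probe on parental replicate 2, at 14.5, where the faintest such signal was 12.5. Every "at least" is thus relative to that signal and is no strict limit. SAA2 fell in Colony cells by at least 2.80-fold (adjusted p = 0.0434). In SN cells it was at least 3.02-fold lower (adjusted p = 0.0602), short of the threshold, and was called under the stricter detection filter (0.0160) and with all 9 arrays in 1 fit (0.0133), within 0.0133 to 0.207 over all alternatives. The Colony call was kept at 0.0332 without parental replicate 3 and lost at adjusted p = 0.0660 and 0.0670 without parental replicates 1 and 2 and 0.112, 0.142 and 0.140 without Colony replicates 1, 2 and 3, within 0.0141 to 0.142 over all alternatives. The call was also lost under quantile normalization, with no detection filter and with no moderation. Under normexp SAA2 passed the p threshold (adjusted p = 0.0471) but not the factor of 2 (log2 -0.47). The offset of 50 added under normexp shrinks the fold of spots this faint. SAA2 entered these tests through its parental arrays alone, so its p rests on Colony and SN values at background level, and its other probe was at background level on all 9 arrays.

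SAA1 ran the other way, with intensity 6.97, 14.5 and 19.0 on the parental arrays, 25.8, 34.3 and 32.9 on the Colony arrays and 34.7, 43.0 and 34.3 on the SN arrays. It was well above background on 1 of 3 parental arrays, replicate 3, and on all 6 transduced arrays, which all lay above the parental ones. With 2 of the 3 parental values at background level, the size of the difference is uncertain. The fitted log2 values were 1.30 in Colony (SE 0.439, adjusted p = 0.117) and 1.59 in SN (SE 0.444, adjusted p = 0.124), against 0.31 and 0.39 under normexp. Neither passed, and the SN difference was called with all 9 arrays in 1 fit (adjusted p = 0.0462, within 0.0462 to 0.316 over all alternatives). Colony and SN overlapped (log2 -0.29, adjusted p = 0.481).

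HP encodes haptoglobin, which binds free haemoglobin, and ORM1 encodes orosomucoid, a carrier of basic drugs and lipids. HP lay between -3.52 and -2.91 on the 9 arrays and its groups overlapped in all 3 comparisons, with means of -3.15 ± 0.22 in parental, -3.28 ± 0.25 in Colony and -3.24 ± 0.31 in SN cells. Its differences had no settled sign. Colony against parental was -0.12 but 0.01 under normexp background correction and 0.04 under quantile normalization, and SN against parental was -0.09 but 0.03 under normexp, 0.03 without parental replicate 3 and 0.05 without SN replicate 1. Colony against SN was -0.04 but 0.06 under quantile normalization, 0.08 without Colony replicate 2 and 0.13 without SN replicate 3. ORM1 read -0.42, -0.67 and -0.71 in parental cells, -1.26, -0.77 and -0.93 in Colony cells and -1.50, -1.43 and -1.12 in SN cells. All transduced arrays were below all parental arrays, with Colony and SN overlapping. The difference was -0.38 in Colony cells (adjusted p = 0.194) and -0.75 in SN cells (adjusted p = 0.0838), and neither passed.

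**Figure D4:**
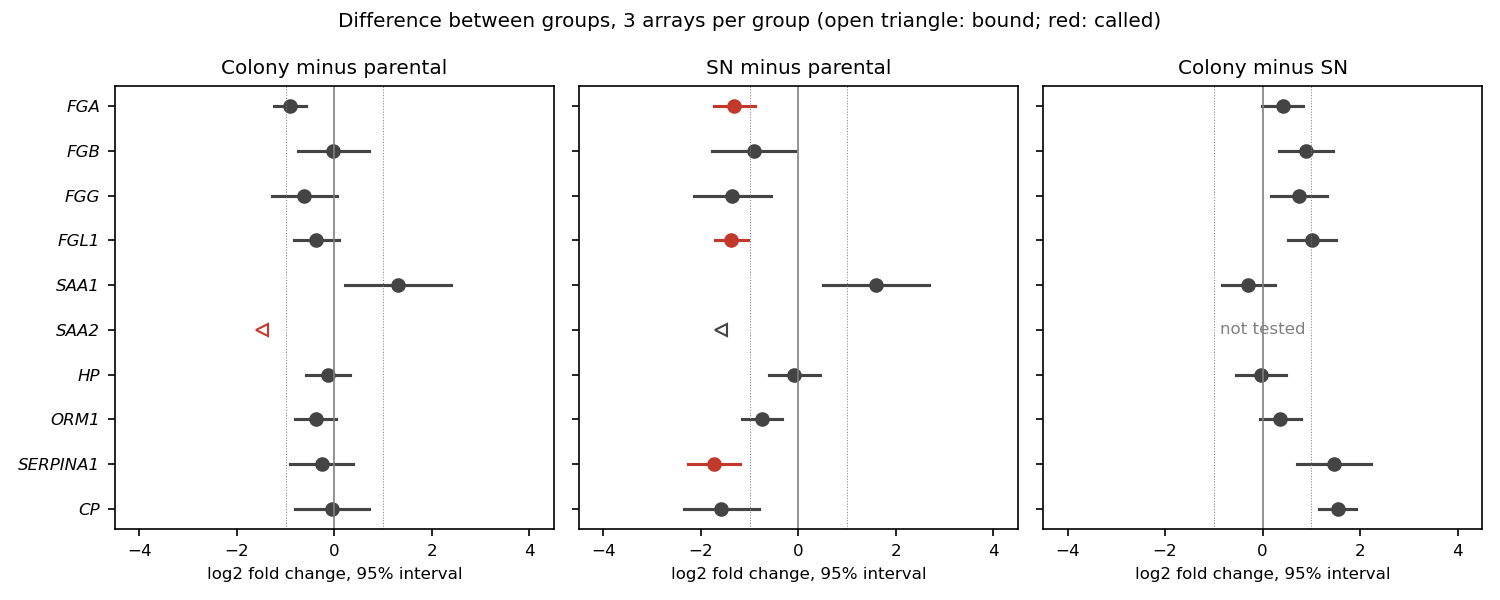
Log2 fold change (horizontal axis) of the representative probe of each member in the 3 comparisons; points are limma estimates, lines are 95% intervals, red marks called genes, dotted lines mark a factor of 2, and the open triangles for SAA2 are bounds that point away from 0. In SN against parental cells FGA, FGL1 and SERPINA1 were called, at -1.32, -1.37 and -1.73.

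The comparison of Colony with parental cells asks how the colony cells differ from their source. Of the 10 members, SAA2 was the only gene called lower and none was called higher. FGA was lower by less than a factor of 2, while FGB, HP, SERPINA1 and CP had differences with no stable sign. That is 1 of 10 members called lower, where 1.82% of 16359 genes were, and that member was at background level on all Colony arrays. Under normexp SAA2 passed the p threshold (adjusted p = 0.0471) but not the factor of 2. The arrays of 4 members (FGA, FGG, SAA2 and ORM1) lay wholly below the parental ones, against 19.7% of all genes, and those of SAA1 lay wholly above. FGG counts here by a hair, at 1.7752 on Colony replicate 3 against 1.7753 on parental replicate 3. The median member differed by -0.31, against 0.03 over all genes tested. The whole comparison gave 1143 called probes of 30864 (529 higher and 614 lower). Of these calls 53.7% were lower, but 44.2% of the 1143 calls under quantile normalization, so the larger direction turned. Without parental replicate 2 that count was 1, and without Colony replicates 1, 2 and 3 it was 141, 0 and 85.

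In SN cells the called members were others, which does not set the 2 transduced groups apart. SAA2 was also lower in SN cells (adjusted p = 0.0602), and FGA also passed the p threshold in Colony cells (adjusted p = 0.0266). The Aα chain gene FGA, the fibrinogen-like gene FGL1 and the antitrypsin gene SERPINA1 all fell, by 2.49-fold, 2.59-fold and 3.31-fold. FGB, FGG, SAA2, ORM1 and CP had arrays wholly below the parental ones without passing the test. Thus 3 of 10 members were called lower, where 0.879% of 16732 genes were, and 8 of 10 lay wholly below parental cells, where 14.5% of all genes did. The median member differed by -1.34, against 0.09 over all genes. The called member count was 0 without parental replicates 1 or 2 or SN replicates 1 or 2, 1 without parental replicate 3, where it was CP and not any of those 3, and 2 without SN replicate 3, FGL1 and SERPINA1. The comparison gave 498 called probes of 32218 (227 higher and 271 lower). The lower share of calls was 54.4%, against 25.1% of 187 with slide as a block and 25.8% of 190 without SN replicate 3, so on slide 1 most calls were higher. The count was 44, 2 and 158 without parental replicates 1, 2 and 3 and 0, 0 and 190 without SN replicates 1, 2 and 3.

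Colony and SN cells, which grew side by side, are the pair in which the lower SN values can be tested directly. CP, SERPINA1 and FGL1 were higher in Colony cells by 2.91-fold, 2.76-fold and 2.01-fold, and FGB and FGG by less than a factor of 2, with the arrays of these 5 genes wholly above the SN arrays. None of the 9 members tested was called by limma, and 0.0% of 16648 genes were called higher. With p left unadjusted (threshold 0.05) and the fold rule kept, 3 members (CP, FGL1 and SERPINA1) passed, against 1.03% of all genes. Under a stricter detection filter and under normexp, 1 member passed in each, CP. The 5 genes without overlap compare with 16.3% of all genes, and the median member differed by 0.74 against -0.03. No probe of 31746 was called in this comparison by limma, with 662 at an unadjusted p, 139 under the stricter filter, 32 under normexp and 9 with all 9 arrays in 1 fit.

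The coagulation factors included called genes in both comparisons with parental cells. Of 24 coagulation factors and inhibitors, 17 were tested in Colony against parental cells (2 called higher, 1 lower, median -0.47) and 16 in SN against parental cells (1 higher, 3 lower, median -0.65). With genes that a group held only at background put at their bounds, the medians were -0.33 and -0.48. Over all genes, 2.09% were called higher and 1.82% lower in Colony cells, and 0.759% higher and 0.879% lower in SN cells. PROC, the zymogen of the anticoagulant activated protein C, had intensity 703 to 1163 in parental, 272 to 275 in Colony and 150 to 176 in SN cells. It fell by 3.16-fold in Colony (log2 -1.66, adjusted p = 0.0292) and 5.31-fold in SN (log2 -2.41, adjusted p = 0.0321). F7, which starts clotting together with tissue factor, fell in SN cells by 3.45-fold (log2 -1.79, adjusted p = 0.0274), and F5, the cofactor that activates prothrombin with factor X, by 3.00-fold (log2 -1.59, adjusted p = 0.0441). F13A1, a fibrin cross-linker, was at least 1.15-fold higher in Colony cells (adjusted p = 0.0412), but was well above background on 1 of 3 Colony arrays and on no parental array. That bound does not reach a factor of 2, and the call counted above rests on values at background level (log2 0.30 and uncalled under normexp). The PROC call was lost without parental replicate 2 or any of the Colony arrays (adjusted p 0.0197 to 0.120 over the left-out arrays) and in SN without any array but parental replicate 3 (0.0442 to 0.137). The F7 call was lost without parental replicates 1 or 2 or SN replicates 1 or 2 (0.0468 to 0.137), the F5 call without any array (0.0501 to 0.173) and the F13A1 call in all 5 fits that could test it (0.0524 to 0.142). The other called genes of the list, named after their values were seen, were THBD, the thrombin receptor thrombomodulin, higher in Colony cells (log2 1.06, adjusted p = 0.0232), and TFPI2, a protease inhibitor, higher in SN cells (log2 1.04, adjusted p = 0.0398). Over all alternatives the adjusted p ran from 0.00613 to 0.125 for THBD, whose log2 value was 0.97 and uncalled under normexp, and from 0.00466 to 0.175 for TFPI2, whose log2 value was 0.92 and uncalled under quantile normalization. THBD kept its call without parental replicate 3 and lost it without any other array (adjusted p 0.0318 to 0.109 over the left-out arrays), and TFPI2 lost it without any array (0.0610 to 0.162). Calls also ended with no detection filter (PROC in Colony cells, F5, F13A1 and TFPI2), with slide as a block (PROC in SN cells, F5 and TFPI2) and with no moderation (all but THBD). In Colony against SN cells none of 16 was called, with a median of 0.15.

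The negative acute phase proteins, whose blood level drops in inflammation, had 8 of 10 tested in Colony against parental cells (2 called lower, median -0.03), 7 in SN against parental cells (2 called lower, median -0.16) and 8 in Colony against SN cells (none called, median 0.93, or 0.65 with ALB at its bound). Over all genes, 1.82% were called lower in Colony and 0.879% in SN cells. AHSG, the calcium-binding fetuin-A, fell by 2.26-fold in Colony (log2 -1.17, adjusted p = 0.0412) and by 4.91-fold in SN cells (log2 -2.30, adjusted p = 0.0126), from 177 to 233 in parental cells to 69.2 to 117 and 37.7 to 53.2. TF, the iron carrier transferrin, fell by 5.87-fold in SN cells (log2 -2.55, adjusted p = 0.0469), where it was well above background on 2 of 3 arrays. APOA1, the main protein of high density lipoprotein, fell by 2.11-fold in Colony cells (log2 -1.07, adjusted p = 0.0489), likewise on 2 of 3 arrays. AHSG lost its call in Colony without any array (adjusted p 0.0578 to 0.131) and in SN without parental replicate 2 or SN replicates 1 or 2 (0.0202 to 0.132). TF lost it without any array (0.0552 to 0.165) and APOA1 without any but parental replicate 1 (0.0301 to 0.167). Under normexp the log2 values were -0.83 for AHSG in Colony, -0.85 for TF and -0.24 for APOA1, and none of these was called. All 3 calls were also lost with no detection filter and with no moderation, those of TF and APOA1 under quantile normalization and that of TF with slide as a block. The AHSG call in SN cells was kept under normexp with a smaller value (log2 -1.41, 2.66-fold).

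Of 20 other acute phase proteins, 14 were tested in Colony against parental cells (1 called higher, median -0.14), 13 in SN against parental cells (none, median 0.08) and 14 in Colony against SN cells (none, median 0.05). The called gene was PTX3, a long pentraxin made outside the liver. It rose in Colony cells by at least 2.36-fold (adjusted p = 0.0126), with intensity 23.7 to 42.6 against 3.34 to 3.61, and was at background level on all parental arrays. It thus entered the test through its Colony arrays alone, and its p rests on parental values at background level. Under normexp it passed the p threshold (adjusted p = 0.0115) but not the factor of 2 (log2 0.59). Of all genes, 2.09% were called higher. The call was lost without parental replicate 2 or Colony replicate 2, at 0.0546 and 0.0876. Against SN cells it was at least 2.97-fold higher (adjusted p = 0.102, but called under the stricter detection filter, within 0.0367 to 0.318 over all alternatives).

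The list of cytokines that induce the acute phase response and of genes of their signalling had 21 of 23 tested in Colony against parental cells (2 called higher, 1 lower, median 0.20), 20 in SN against parental cells (none called, median -0.02) and 21 in Colony against SN cells (none, median 0.10). IL6, the main inducer in hepatocytes, rose in Colony cells by at least 2.39-fold (adjusted p = 0.0153), with intensity 20.3 to 48.8 against 2.46 to 2.84, and was at least 3.12-fold above SN cells (adjusted p = 0.0930, and called under the stricter detection filter and with all 9 arrays in 1 fit, within 0.0240 to 0.305 over all alternatives). IL6 was at background level on all parental arrays and entered the test through its Colony arrays alone, so its p rests on parental values at background level. CLCF1, a cytokine of the same family, rose by 2.35-fold in Colony cells (log2 1.24, adjusted p = 0.0214). OSM, oncostatin M, was at least 1.59-fold lower in Colony cells (adjusted p = 0.0435) and was well above background on 2 of 3 parental arrays and on no Colony array, so its call rests on values at background level and its bound does not reach a factor of 2. IL6 lost its call without parental replicate 2 or Colony replicate 2 (adjusted p 0.0259 to 0.0932 over the left-out arrays), CLCF1 without parental replicate 2 or any of the Colony arrays (0.0224 to 0.106) and OSM without any array but Colony replicate 3 (0.0490 to 0.144). Under normexp IL6 passed the p threshold (adjusted p = 0.0127) but not the factor of 2 (log2 0.69). OSM passed neither there (log2 -0.18, adjusted p = 0.236). OSM also lost its call under quantile normalization, with no detection filter and with no moderation. Of all genes, 2.09% were called higher and 1.82% lower in Colony cells.

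Of 16 liver-enriched transcription factors, 14 were tested, and 11 of them were lower than in parental cells in Colony (1 called, median -0.24) and 11 in SN (none called, median -0.46), against 47.2% and 40.8% of all genes. In Colony against SN none was called, with a median of 0.31. HNF4A, a nuclear receptor that drives hepatocyte genes, fell in Colony cells by 2.48-fold (log2 -1.31, adjusted p = 0.0217), where it was well above background on 2 of 3 arrays. The call was lost without parental replicate 2 or any of the Colony arrays (0.0267 to 0.104). It was also lost under normexp, where HNF4A passed the p threshold (adjusted p = 0.0481) but not the factor of 2 (log2 -0.37). Of all genes, 1.82% were called lower in Colony cells. Among 13 tested genes of iron and copper handling, LRP1, a receptor that clears protease complexes and haem-haemopexin, fell in Colony cells by 2.04-fold (log2 -1.03, adjusted p = 0.0475), a call that, with 1 array left out, was kept only without parental replicate 1 (0.0403 to 0.150). It was also lost under normexp (log2 -0.60) and quantile normalization, with no detection filter and with no moderation. None of these 13 was called in SN against parental or in Colony against SN cells, and the medians were -0.05, -0.06 and 0.02 in the order Colony against parental, SN against parental and Colony against SN.

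The remaining lists had no calls. In the same order, 16, 18 and 18 of 22 complement genes were tested, with medians of -0.14, -0.10 and 0.31. Among those detected on all 9 arrays, CD59, which blocks the membrane attack complex, differed by 1.08 in Colony against parental cells (adjusted p = 0.0572). CD59 was called without parental replicate 3, at adjusted p = 0.0230, and under the stricter detection filter (0.0224) and all 9 arrays in 1 fit (0.0184), within 0.0184 to 0.171 over all alternatives. The other genes with a fibrinogen domain had 11 of 20 tested in each comparison, with medians of -0.16, 0.01 and -0.37 (-0.14, 0.01 and -0.27 with genes at their bounds), and among those detected on all 9 arrays TNR and ANGPTL4 differed most, by -0.65 and -0.56 in Colony against SN cells (adjusted p = 0.209 and 0.503). Of 7 neighbours of SERPINA1 in the serpin cluster only SERPINA10 was tested, at -0.49, -0.17 and -0.33.

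**Figure D5:**
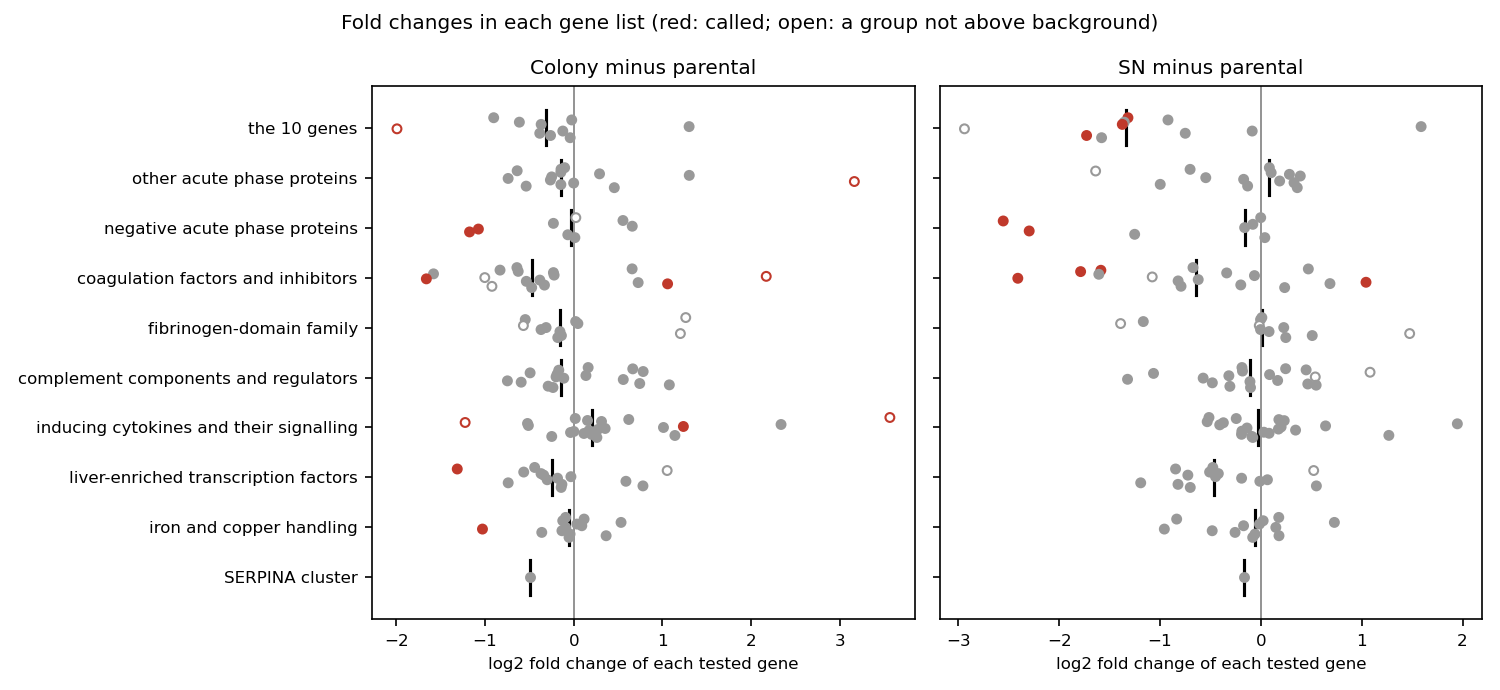
Log2 fold change (horizontal axis) of each tested gene of the members and of the other lists, in Colony and in SN against parental cells; points are genes by their fitted value, bars are list medians, red marks called genes, and open symbols mark genes with a group at background level on all its arrays, whose fitted value is no measured fold. The member median was -1.34 in SN against parental cells, where the median over all genes was 0.09.

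Of the genes nearest to the fibrinogen chains on chromosome 4, 1 of 4 was detected. PLRG1, a splicing factor beside FGB, was detected on all 9 arrays and differed from parental cells by 0.41 in Colony (adjusted p = 0.0821) and 0.31 in SN (adjusted p = 0.300). DCHS2, LRAT and RBM46 were at background level on all 9. Beside the SAA pair on chromosome 11, SAA4 and MRGPRX4 were likewise at background level. HPS5, needed for lysosome-related organelles, differed by 0.27 and 0.21 (adjusted p = 0.174 and 0.503), and GTF2H1, a subunit of the transcription factor TFIIH, by 0.81 and 0.64 (adjusted p = 0.0461 and 0.143), below a factor of 2.

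The genes most like the fibrinogen chains were found by the root mean square difference over the 9 arrays between each centred gene and the mean of centred FGA, FGB and FGG. Among 13927 genes detected on all arrays, PLCB1 was closest at 0.171, followed by FTX at 0.201, NDNF at 0.209, ANXA13 at 0.220 and LOC114224 at 0.227. The chains themselves differed from their mean by 0.234 for FGA, 0.260 for FGB and 0.115 for FGG, and of the other members FGL1 (0.303) and ORM1 (0.304) were closer than CP (0.431), SERPINA1 (0.470) and HP (0.592). In SN against parental cells the 5 genes differed by -1.36, -0.99, -1.18, -1.29 and -1.09, with adjusted p of 0.0462, 0.0439, 0.0497, 0.0321 and 0.0406. FTX stayed under a factor of 2, and the other 4 were called. PLCB1 and ANXA13 kept their calls only without parental replicate 3 (adjusted p 0.0479 to 0.183 and 0.0468 to 0.140 over the left-out arrays), and NDNF and LOC114224 lost theirs without any array (0.0544 to 0.187 and 0.0511 to 0.171). All 4 calls were lost with slide as a block and with no moderation, and all but that of ANXA13 under normexp and with no detection filter. Those of PLCB1 and NDNF were also lost under quantile normalization (adjusted p = 0.0520 and 0.0518). Under normexp the log2 value of NDNF was -0.325. All 5 were chosen for this likeness, so these values are a description.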

How the data were processed

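The authors hybridised total RNA labelled with Cy3 to Agilent 1-colour human arrays and deposited scanner output of Agilent Feature Extraction 11.5.1.1, whose spot intensity is background-subtracted and not scaled between arrays. The authors also deposited a log2 table of the same arrays, equal to log2 of that intensity minus 1 constant per array; its column medians were -3.64, -3.66 and -3.56 (parental), -3.72, -3.80 and -3.82 (Colony) and -3.71, -3.68 and -3.55 (SN), its direction is that of the intensity, and the rule behind its centring stays unknown.

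Control spots (4259 per array) and outlier spots (357 to 484) were removed, spots of a probe were averaged on the log2 scale, and each array's 75th percentile was subtracted (percentiles of 217.5 to 270.6 in intensity). A probe was detected on an array where at least 0.5 of its spots were well above background. Of 50599 probes, 32065 carried a RefSeq accession and 30275 could be named, with 21743 gene names. Groups were compared in pairs with limma 3.58.1 (lmFit, eBayes) in R 4.3.3, on probes detected on at least 1 of the 6 arrays, with Python 3.11.15 and pandas 2.3.3 for the tables. A gene with several probes was represented by the probe with the highest mean over the 9 arrays. The steps were tested on simulated data.

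The text names all members; called genes of each list, or the 4 with the largest difference where more were called, or up to 2 of those with the largest difference among genes detected on all 9 arrays where none was; the 5 genes most like the fibrinogen chains; and the 2 nearest genes with a probe on each side of the chromosome 4 and chromosome 11 groups. THBD and TFPI2 were added outside this rule after their values were seen. The members and lists were chosen with earlier results of these data known. The alternatives were normexp background correction (on median spot brightness, offset 50), quantile normalization, testing every probe, a stricter detection filter, blocks for slide or for replicate number (replicate block), a joint fit of the 9 arrays, ordinary t tests, p without adjustment, the deposited log2 table, averaging a gene's detected probes, and leaving out each array. The offset of 50 added under normexp shrinks the fold of faint spots. A factor of 2 missed there does not decide whether a faint gene differs. The number of arrays limits the precision.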

Additional observations from a re-analysis of the deposited data

How the results depend on the processing

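Over the named genes, 68 differences were refitted under 1121 settings: 882 kept their direction and side of the threshold, 191 lost the call, 33 gained one and 15 changed sign, none of them a called difference. Some settings could hardly change a result, so the 882 are no measure of stability. The deposited table nearly repeats the main values, and unadjusted p cannot remove a call. Averaging probes alters the values only of members with more than 1 detected probe. The called probes in Colony against parental cells (1143) became 333 under normexp, 583 with no detection filter, 336 with no moderation and 2038 with unadjusted p, and lay between 0 and 1362 with 1 array left out; the called members (1) became 0 under normexp, 0 under quantile normalization, 0 with no filter, 0 with no moderation and 2 with unadjusted p, and lay between 0 and 1 with 1 array left out. In SN against parental cells the probes (498) became 235 under normexp, 215 with no filter, 980 under the stricter filter, 187 with slide as a block, 1085 with all 9 arrays in 1 fit, 5 with no moderation and 1879 with unadjusted p, and lay between 0 and 190 with 1 array left out; the called members (3) became 2 with no filter and 2 with slide as a block, FGA losing its call in both, and 5, 6, 7, 0 and 7 under normexp, the stricter filter, all 9 arrays, no moderation and unadjusted p, and lay between 0 and 2 with 1 array left out. In Colony against SN cells the probes (0) became 32 under normexp, 139 under the stricter filter, 9 with all 9 arrays and 662 with unadjusted p, and the members (0) became 1, 1 and 3 under normexp, the stricter filter and unadjusted p. The cause was not tested. Slide as a block was not run for Colony against parental cells, which all lay on slide 1.

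Signs turned for HP, at 0.0109 under normexp and 0.0446 under quantile normalization (Colony against parental), 0.0265 under normexp (SN against parental), and 0.0571 under quantile normalization and 0.13 with slide as a block (Colony against SN). With 1 array left out, HP ran from -0.25 to 0.0549 in SN against parental and from -0.18 to 0.13 in Colony against SN cells, and in Colony against parental cells FGB ran from -0.30 to 0.26, SERPINA1 from -0.47 to 0.0056 and CP from -0.36 to 0.21. The cause was not tested.

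With replicate number as a block (replicate block), 0 probes and 0 members were called in each of the 3 comparisons. The labels do not say what a number marks, but same-numbered Colony and SN arrays carry the same passage, and SN cells arose around the colonies. The deviations of same-numbered arrays from their group means correlated at -0.007, -0.053 and -0.016 (Colony and parental) and 0.150, -0.196 and -0.010 (SN and parental), where not every array correlated best with its own number. For Colony and SN they correlated at 0.239, 0.073 and 0.138, against -0.183 to 0.030 for different numbers, so each array correlated best with its own number, a hint that these numbers may mark pairs.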
